A study of Glycine max with 7 samples.

Results

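Binding sites spanning 1000 bp or more were examined for GLYMA.04G093300 and GLYMA.06G314400, 2 soybean (Glycine max) transcription factors, in chromatin of cotyledon-stage embryos. A site was built by joining the peaks of a factor's 2 replicates that overlapped by at least 1 bp, and its width ran from the lowest start to the highest end of its member peaks. The broad sites were selected on this width, a measured value, so width itself and the number of joined peaks are described here and not tested. Of 30749 GLYMA.04G093300 sites on the 20 chromosomes, 1420 (4.62%) were broad, and of 39383 GLYMA.06G314400 sites, 1780 (4.52%) were broad. These 3200 sites, of 70132 in all, lay at 2985 separate places, since some broad sites of the factors overlapped each other. The other 29329 and 37603 sites are called narrower below.

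Chromatin immunoprecipitation with sequencing (ChIP-seq) recovers the DNA fragments that an antibody pulls down with its protein, and a peak is a stretch where such fragments pile up above a local background. A factor that sits on a single short DNA word is usually seen as a peak about as wide as the sheared fragments, with its highest point, the summit, near the middle. A wider stretch can come from several bound positions lying close together. The peak lists name GLYMA.06G314400 AREB3, in Arabidopsis a basic leucine zipper (bZIP) protein of the group that recognises abscisic acid response elements, a group known for its roles in seed maturation. They name GLYMA.04G093300 HB22, a name of the kind given to homeobox proteins, which bind DNA through a homeodomain.

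Both groups came from greenhouse-grown plants of cultivar Williams 82. For GLYMA.04G093300, chromatin was precipitated with 2 µg of an antibody to 1 peptide of that protein (replicates 1 and 2), and for GLYMA.06G314400 with 3 µg of an antibody to 1 peptide of that protein (replicates 2 and 3). Embryos from seeds of 3.5 to 4.5 mm were fixed whole in 1% formaldehyde, so their cell types are not told apart, and sonication gave fragments of 100 to 500 bp. The 2 GLYMA.04G093300 lists held 50665 and 39721 peaks and the 2 GLYMA.06G314400 lists 45324 and 50147, and 3 input libraries were not analysed here. The depth of the libraries is unknown, since the lists hold no read counts. A set of 2 libraries against 2 cannot give an exact two-sided permutation p below 0.333, so no p is given, and values in single libraries are given for the main measures.

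The broad sites of the factors had nearly the same widths. The median was 1165 bp for GLYMA.04G093300, with quartiles of 1069 and 1349 bp and a highest value of 3432 bp. For GLYMA.06G314400 the median was 1167 bp, with quartiles of 1066 and 1353 bp and a highest value of 3019 bp. Narrower sites had medians of 435 bp and 478 bp. Although few, the broad sites held 1.78 Mb, or 11.3%, of the length covered by GLYMA.04G093300 sites and 2.24 Mb, or 10.4%, of that covered by GLYMA.06G314400 sites. Most broad sites thus lay not far above the limit, and those of 1500 bp or more numbered 193 and 256.

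**Figure D1:**
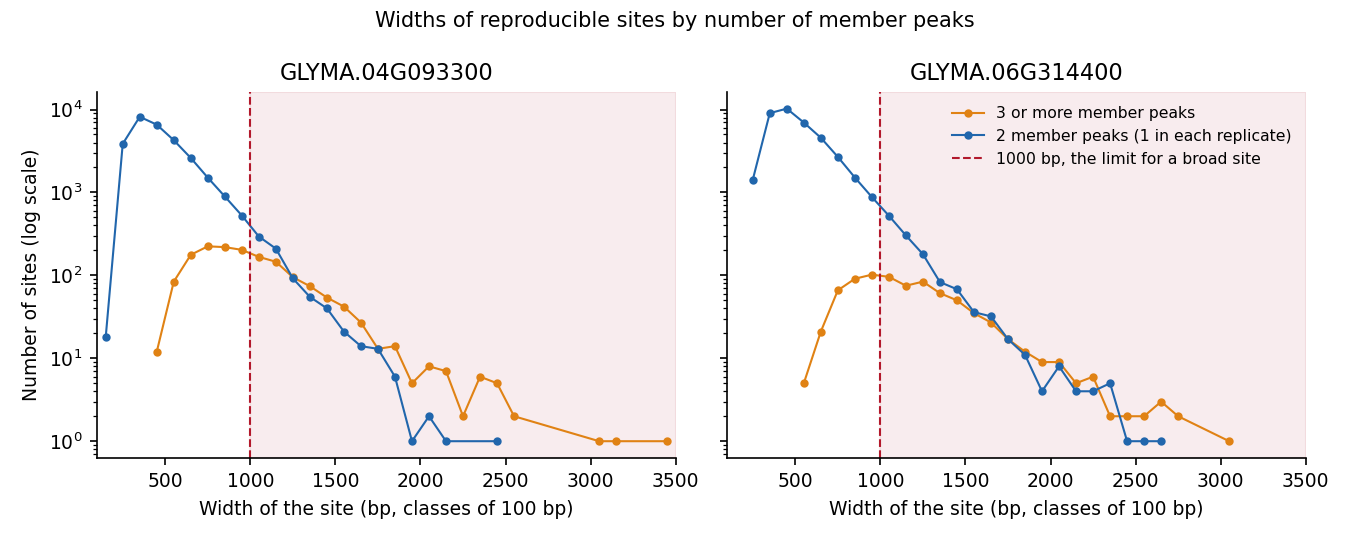
The number of reproducible sites (log scale) in each 100 bp class of width (bp) is plotted for both factors, with 3 or more member peaks in orange and 1 peak in each replicate in blue. The shaded area holds the 1420 and 1780 broad sites, where the orange line meets the blue one and, in the widest classes, often lies above it.

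Single libraries held fewer such stretches. Peaks of 1000 bp or more numbered 781 in replicate 1 and 702 in replicate 2 of GLYMA.04G093300, which is 1.66% ± 0.161 of the peaks on the chromosomes (SD, n = 2). In GLYMA.06G314400 they numbered 831 in replicate 2 and 1484 in replicate 3, or 2.41% ± 0.801 (SD, n = 2). Joining the replicates therefore raised the count of GLYMA.04G093300 by over 1.5 times against either library, and that of GLYMA.06G314400 against its replicate 2 alone. Of the 1420 GLYMA.04G093300 sites, 710 (50%) spanned 1000 bp in each replicate on its own, and 120 (8.45%) did so in neither and reached it only when joined. For GLYMA.06G314400 these numbers were 1034 (58.1%) and 102 (5.73%). The libraries did not contribute equally to GLYMA.06G314400. There 1569 sites (88.1%) spanned 1000 bp in replicate 3 and 1143 (64.2%) in replicate 2, and the span was larger in replicate 3 at 76.9% of broad sites and at 65.5% of narrower ones. In GLYMA.04G093300, 1073 sites (75.6%) spanned 1000 bp in replicate 1 and 937 (66.0%) in replicate 2.

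Wide peaks rarely lacked a peak of the other replicate, of any width. The overlapping peak was not always wide itself. Single peaks of 1000 bp or more lay at 1483 broad GLYMA.06G314400 sites in replicate 3 and at 828 in replicate 2. For GLYMA.04G093300 they lay at 775 broad sites in replicate 1 and at 700 in replicate 2. A peak of the other replicate overlapped 775 of the 781 wide peaks of GLYMA.04G093300 replicate 1, 701 of the 702 of its replicate 2, 831 of the 831 of GLYMA.06G314400 replicate 2 and 1483 of the 1484 of its replicate 3. Among narrower peaks the share was 62.2% and 79.6% in GLYMA.04G093300 and 88.5% and 78.8% in GLYMA.06G314400. A wide peak has more room to be overlapped, and the wide peaks had a median fold percentile of 89.9 to 91.9 within their lists, against 48.6 to 49.3 for narrower peaks.

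More of the broad GLYMA.04G093300 than of the broad GLYMA.06G314400 sites had 3 or more member peaks, a difference that was not tested. In GLYMA.04G093300, 750 broad sites (52.8%) consisted of 1 peak in each replicate, and 670 (47.2%) had 3 or more member peaks, up to 5. In GLYMA.06G314400, 1282 (72.0%) had 1 peak in each replicate and 498 (28.0%) had more. These counts depend on the joining rule. When peaks had to overlap by 50% of both, no broad site of either factor (0%) had more than 2 members. That rule itself sets this value, since separate peaks of 1 replicate can hardly each share 50% with the same peak. With 1 bp, more than 2 members were found in 3.13% and 0.758% of the narrower sites, where there is less room for them. Among broad GLYMA.04G093300 sites, replicate 1 was divided into 2 or more peaks at 398 and replicate 2 at 355. Among broad GLYMA.06G314400 sites the division lay mostly in replicate 2, at 407 sites, against 109 in replicate 3, which is also the library with the wider peaks. With 1420 broad GLYMA.04G093300 and 1780 broad GLYMA.06G314400 sites, replicate 3 was the only library of the 4 divided at so few. The most frequent composite form was 2 peaks in 1 replicate bridged by a single peak in the other. This form made up 304 sites with the pair in replicate 1 and 252 with the pair in replicate 2 for GLYMA.04G093300, and 371 with the pair in replicate 2 and 90 with the pair in replicate 3 for GLYMA.06G314400. The gaps between peaks divided within 1 replicate were short, with a median of 143 bp (range 52 to 750 bp) for GLYMA.04G093300 and 158 bp (52 to 1010 bp) for GLYMA.06G314400.

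Many broad sites had more than 1 summit when the summits of both replicates were pooled. Summits of all member peaks were counted as distinct where they lay 200 bp or more from the one before. By this count 820 broad GLYMA.04G093300 sites (57.7%) and 596 broad GLYMA.06G314400 sites (33.5%) had 2 or more distinct summits. Among narrower sites the shares were 8.21% and 1.90%, but these have less room for summits 200 bp apart. The share rose through every class of width, below the limit as well. It was 36.7% in GLYMA.04G093300 sites from 800 to below 1000 bp and 49.6% in those from 1000 to below 1200 bp. For GLYMA.06G314400 the shares in these classes were 11.0% and 22.8%. There were 3 distinct summits at 126 and 38 broad sites. A site with 1 peak in each replicate also counts here where the summits of its replicates lay 200 bp or more apart. One such site was chr14:7511686-7512685 of GLYMA.04G093300, with summits 213 bp apart. Only 670 broad GLYMA.04G093300 and 498 broad GLYMA.06G314400 sites had more than 2 member peaks, so part of the count reflects replicates that differed in summit position. Within 1 replicate, neighbouring summits of a divided site lay a median of 643 bp apart (quartiles 511 and 783 bp) in GLYMA.04G093300 and 677 bp apart (591 and 817 bp) in GLYMA.06G314400. These distances exceed the longest sheared fragments of 500 bp at the median. The choice of wide sites and the gap between divided peaks both favour large distances, so these values are a description. The lists give 1 summit for each peak, so further high points inside an undivided wide peak are not seen.

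The replicates mostly placed the main summit of a broad site at the same spot. The main summit of a replicate belongs to its member peak of highest fold percentile. The 2 main summits lay a median of 53 bp apart at broad GLYMA.04G093300 sites, against 43 bp at narrower ones, and 17 bp apart at broad GLYMA.06G314400 sites, against 21 bp. A minority of broad sites had main summits far apart. They were separated by 300 bp or more at 287 broad GLYMA.04G093300 sites (20.2%) and 149 broad GLYMA.06G314400 sites (8.37%), against 2.47% and 0.675% of narrower sites, most of which leave less room for such a distance.

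With the width cut into 3 equal parts, the summit lay in the central one at 41.3% of broad GLYMA.04G093300 sites and 42.0% of broad GLYMA.06G314400 sites, against 71.2% and 89.3% of narrower sites. With the distance from middle to edge set to 100%, the summit of the site lay a median of 40.2% from the middle at broad GLYMA.04G093300 sites and 38.2% at broad GLYMA.06G314400 sites, against 21.1% and 11.5% at narrower sites. The same held in every library, with 38.9% and 40.0% for wide against 20.5% and 21.6% for narrower GLYMA.04G093300 peaks, and 39.5% and 39.4% for wide against 11.4% and 12.9% for narrower GLYMA.06G314400 peaks. The means over libraries were 39.4% ± 0.789 against 21.1% ± 0.774 and 39.5% ± 0.0491 against 12.1% ± 1.02 (SD, n = 2 each), so the gap was larger than the spread between replicates. In base pairs, the nearer edge of a broad site lay a median of 362 bp from the summit for GLYMA.04G093300 and 369 bp for GLYMA.06G314400, and the farther edge 827 and 811 bp. Where a site had several distinct summits, these distances refer to the chosen one. In narrower sites the distances were 162 and 265 bp for GLYMA.04G093300 and 206 and 268 bp for GLYMA.06G314400.

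The widest sites show these forms. The widest of all was a GLYMA.04G093300 site at chr10:48537441-48540872, 3432 bp long, where replicate 1 had a single peak of 3312 bp with a fold of 8.81 and replicate 2 had peaks of 2732 and 623 bp with folds of 7.67 and 2.43. The summits of the main peaks were 31 bp apart, at 2428 and 2459 bp from the start of the site. At chr5:37790733-37793839 (3107 bp) each replicate had 2 peaks, and the main summits lay 920 bp apart. The second peak of replicate 2, with a fold of 3.80 against 3.99 for its main peak, had its summit 2299 bp from the start, near the main summit of replicate 1 at 2185 bp. The site at chr13:24596738-24599815 (3078 bp) had 3 peaks in replicate 1 under a single peak of 2951 bp in replicate 2. It was followed by chr11:8163419-8166013 (2595 bp, 4 members) and by chr17:13599962-13602533 (2572 bp). The last had 4 peaks in replicate 1, with folds of 5.02, 4.49, 7.85 and 4.06, beneath 1 peak of 2141 bp with a fold of 6.56 in replicate 2. Genes near these positions are not named, because the genome build of the coordinates is not given in the sources used here.

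For GLYMA.06G314400 the widest site lay at chr19:46574410-46577428 (3019 bp). Replicate 3 had 1 peak over the whole length with a fold of 21.2, and replicate 2 had 3 peaks with folds of 5.36, 11.5 and 29.3, the last with its summit 7 bp from that of replicate 3. The next were chr15:6458757-6461473 and chr17:795160-797876, both of 2717 bp, with folds in replicates 2 and 3 of 31.7 and 27.9 on chromosome 15 and of 22.4 and 24.0 on chromosome 17. They were followed by chr1:3714945-3717604 (2660 bp, folds 18.3 and 25.6) and chr4:46558414-46561068 (2655 bp, folds 53.3 and 53.1). In the 5 widest sites of this factor replicate 2 was divided into 2 or 3 peaks and replicate 3 was a single peak. At the chromosome 4 site the main summits were 670 bp apart.

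**Figure D2:**
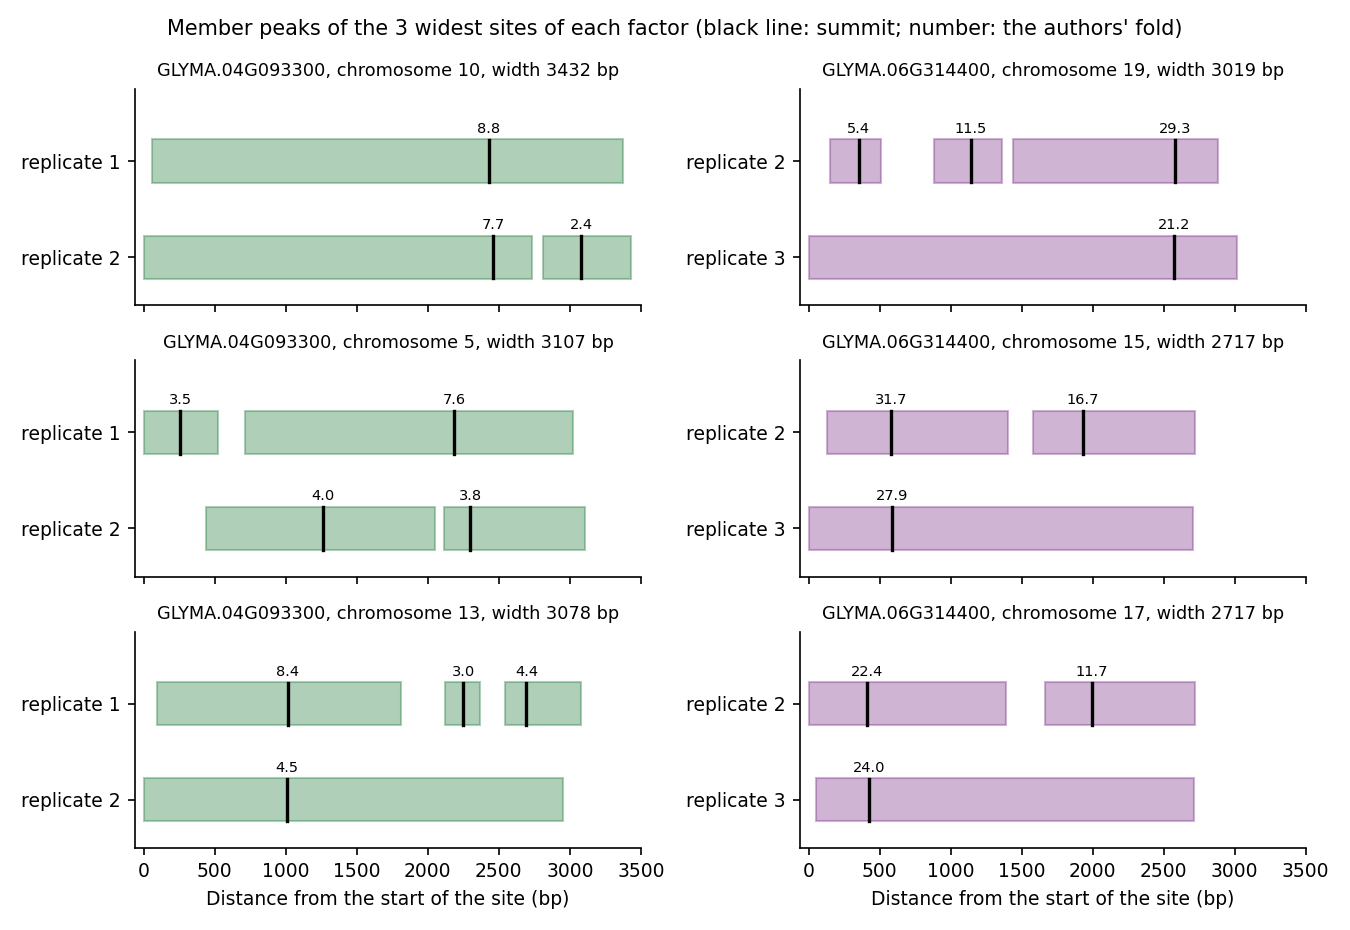
Member peaks of the 3 widest sites of each factor are drawn to scale along the distance from the start of the site (bp), with a row for each replicate, a black line at each summit and the authors' fold above it. In all 3 GLYMA.06G314400 sites a single peak of replicate 3 spans the divided peaks of replicate 2.

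Broad sites with the most members, chosen by count and then by position, were not those with the highest folds. The GLYMA.04G093300 sites at chr5:6970054-6971315, chr8:17289504-17291054 and chr9:3746367-3748487 had 5 peaks each and highest folds of 4.89 and 4.78, 6.68 and 3.89, and 7.22 and 9.70 in replicates 1 and 2. The 1 GLYMA.06G314400 site with 5 peaks, at chr5:6175985-6177988, had folds of 24.5 and 21.5 in replicates 2 and 3. Sites at chr1:2599551-2601708 and chr1:52342304-52344089 had 4 peaks each, and their folds were 21.7 and 26.5 at the first and 5.84 and 8.93 at the second. Among broad sites, those with 3 or more peaks had a lower median rank than those with 1 peak in each replicate, at percentiles of 78.1 against 84.6 for GLYMA.04G093300 and 79.8 against 87.0 for GLYMA.06G314400. They were wider at the median, with 1218 against 1134 bp and 1291 against 1134 bp.

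Broad sites stood high within their lists. The fold is the ratio that the authors' caller gave to a peak within 1 library, and it was compared only within its list, as a percentile. Width and fold come from the same call, so the link between them is a description. The highest fold at a broad GLYMA.04G093300 site had a median of 7.13 in replicate 1 and 5.91 in replicate 2, against 4.82 and 4.04 at narrower sites. At broad GLYMA.06G314400 sites it was 18.3 in replicate 2 and 20.4 in replicate 3, against 6.96 and 7.97. With a site ranked by the smaller of its percentiles in the 2 lists, the median percentile was 82.1 for broad and 44.3 for narrower GLYMA.04G093300 sites and 85.6 for broad and 48.6 for narrower GLYMA.06G314400 sites. Of the broad sites, 456 (32.1%) and 676 (38.0%) reached the 90th percentile in both lists, against 7.63% and 7.47% of narrower sites.

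The 3 broad sites of highest rank of each factor were 1048 to 1251 bp wide, although the median rank was higher in wider classes. In sites of 1000 to 1199, 1200 to 1499 and 1500 bp or more it lay at GLYMA.04G093300 percentiles of 79.0, 83.9 and 88.4. The GLYMA.06G314400 percentiles in these classes were 83.1, 86.6 and 90.5. The broad GLYMA.04G093300 sites with the highest rank lay at chr2:39573147-39574356 (1210 bp, folds 27.3 and 19.9 in replicates 1 and 2), chr6:8390567-8391614 (1048 bp, folds 24.6 and 18.4) and chr14:43803292-43804542 (1251 bp, folds 22.3 and 17.5). For GLYMA.06G314400 they lay at chr4:11188636-11189801 (1166 bp, folds 68.5 and 67.8 in replicates 2 and 3), chr19:47905556-47906708 (1153 bp, folds 61.6 and 62.3) and chr11:2852643-2853855 (1213 bp, folds 54.3 and 62.0). Of these 6 sites, 5 had a single peak in each replicate, and the main summits of the replicates were 1 to 64 bp apart. All 6 overlapped a site of the other factor. The same was true of 69.5% of all broad GLYMA.04G093300 sites and 58.7% of all broad GLYMA.06G314400 sites.

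A small part of the broad sites was weak. A rank under the 25th percentile was found at 79 broad GLYMA.04G093300 sites (5.56%) and 33 broad GLYMA.06G314400 sites (1.85%), against 30.2% and 26.4% of narrower sites. The lowest GLYMA.04G093300 site, at chr5:41202267-41203710 (1444 bp), had folds of 4.89 in replicate 1 and 2.22 in replicate 2. The next lowest lay at chr17:6342771-6343961 (1191 bp, folds 3.39 and 2.36) and chr6:5612406-5613485 (1080 bp, folds 5.19 and 2.39). The lowest GLYMA.06G314400 site, at chr12:39184659-39185758 (1100 bp), had folds of 1.49 in both replicates, although the −log10 q of its peaks was 13.4 and 8.97. It was followed by chr14:35026469-35027532 (1064 bp) and chr16:4484722-4485869 (1148 bp). At these, replicate 2 had a peak of only 235 and 244 bp with folds of 2.84 and 2.91, against folds of 5.73 and 8.51 in replicate 3, so their width came from 1 library.

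Sites on either side of the limit were compared by width class. There were 461 GLYMA.04G093300 sites of 1000 to 1099 bp and 730 of 900 to 999 bp, with a median rank at the 79.1 and 77.3 percentile, and 36.2% and 27.8% of them had more than 2 members. For GLYMA.06G314400 there were 620 and 982 sites, with a median rank at the 82.2 and 80.8 percentile, and 15.5% and 10.4% had more than 2 members. In the same classes, 63.3% and 57.7% of GLYMA.04G093300 sites and 53.9% and 50.1% of GLYMA.06G314400 sites overlapped the other factor. A summit of the other factor lay within 100 bp at 11.1% and 15.5% of GLYMA.04G093300 sites and at 13.1% and 13.3% of GLYMA.06G314400 sites. The middle 50% of the chromosome held 17.8% and 16.4% of GLYMA.04G093300 sites and 18.2% and 21.1% of GLYMA.06G314400 sites. Rank, member number and overlap were thus higher just inside the limit for both factors, while the position on the chromosome moved in opposite directions in these classes. For GLYMA.04G093300 that direction depended on the class chosen. In classes of 50 bp the middle held 13.2% of its sites of 1000 to 1049 bp and 15.3% of those of 950 to 999 bp. The sites just inside, all of exactly 1000 bp, were chr4:686516-687515 (folds 7.78 and 3.76 in replicates 1 and 2), chr9:41050646-41051645 (4.32 and 4.57) and chr14:7511686-7512685 (6.90 and 4.80) for GLYMA.04G093300. Just outside, at 999 bp, were chr7:17035741-17036739 (5.34 and 4.54), chr11:26183181-26184179 (5.86 and 4.69) and chr13:43955302-43956300 (14.1 and 8.32). For GLYMA.06G314400 the sites of 1000 bp were chr1:1476690-1477689 (folds 5.54 and 5.36 in replicates 2 and 3), chr1:2602007-2603006 (6.56 and 9.40) and chr2:41450286-41451285 (22.7 and 22.2). Those of 999 bp were chr2:4008308-4009306 (6.74 and 8.08), chr5:1046607-1047605 (21.2 and 15.5) and chr5:35248816-35249814 (6.18 and 10.8).

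Most broad sites of either factor overlapped a site of the other. This held for 987 broad GLYMA.04G093300 sites (69.5%), against 39.1% of narrower ones and 40.5% of all GLYMA.04G093300 sites. It held for 1044 broad GLYMA.06G314400 sites (58.7%), against 30.1% of narrower ones and 31.4% of all GLYMA.06G314400 sites. Wide peaks of single libraries gave 73.2% and 69.5% in GLYMA.04G093300 replicates 1 and 2, against 34.8% and 35.2% of narrower peaks, and 56.7% and 59.9% in GLYMA.06G314400 replicates 2 and 3, against 28.3% and 29.1%. The means of 71.4% ± 2.63 against 35.0% ± 0.323 and 58.3% ± 2.28 against 28.7% ± 0.607 (SD, n = 2 each) were separated by more than the spread between replicates. Broad sites were above narrower ones on 20 of 20 chromosomes for both factors. A longer stretch has more room for an overlap, and the share rose through every class of width, up to 79.3% and 69.1% at 1500 bp or more. Overlap with 2 or more sites of the other factor was found at 126 broad GLYMA.04G093300 sites (8.87%) and 127 broad GLYMA.06G314400 sites (7.13%), against 0.358% and 0.476% of narrower sites.

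Counts in a window of 100 bp around the summit, or per length, gave another picture. Windows wider than 100 bp were not tried, so the direction is given for this window only. At 100 to 200 bp from the summit, broad sites had more summits of the other factor than narrower sites. The counts were 16.8 against 10.5 per 100 GLYMA.04G093300 sites and 11.1 against 8.30 per 100 GLYMA.06G314400 sites. A summit of the other factor lay within 100 bp of the summit of 167 broad GLYMA.04G093300 sites (11.8%), against 16.3% of narrower sites and 16.1% of all. For GLYMA.06G314400 this was 199 broad sites (11.2%), against 12.6% of narrower sites and also 12.6% of all. Without GLYMA.04G093300 replicate 2, so that the partner peaks were those of replicate 1 alone, the GLYMA.06G314400 shares were 18.0% for broad and 20.4% for narrower sites. The broad sites were below the narrower ones on 20 of 20 chromosomes for GLYMA.04G093300, with a mean difference of -5.04 percentage points (SE 0.636 over chromosomes), and on 16 of 20 for GLYMA.06G314400, with -1.43 points (SE 0.749). In single libraries the shares were 12.9% and 11.3% for wide against 15.9% and 13.1% for narrower GLYMA.04G093300 peaks, and 10.8% and 11.0% for wide against 11.9% and 12.2% for narrower GLYMA.06G314400 peaks. The library means were 12.1% ± 1.19 against 14.5% ± 1.96 for GLYMA.04G093300, where single libraries of the 2 classes nearly met, and 10.9% ± 0.109 against 12.0% ± 0.237 for GLYMA.06G314400 (SD, n = 2 each). The direction depended on counting a single summit for each site. Where a summit of any member peak was allowed, the shares were 22.5% against 20.5% and 16.0% against 14.4%, with broad sites the higher, and broad sites have more summits to count. With the limit for a broad site at 800 bp the GLYMA.06G314400 shares were 12.7% and 12.5%, also with the wider sites the higher.

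Counted per length, summits of the other factor were no denser in broad sites. Broad GLYMA.04G093300 sites held 0.566 GLYMA.06G314400 summits per kb, against 0.669 in narrower sites, and broad GLYMA.06G314400 sites held 0.472 GLYMA.04G093300 summits per kb, against 0.492. By library, wide peaks held 0.592 and 0.561 per kb and narrower peaks 0.708 and 0.636 for GLYMA.04G093300, and 0.451 and 0.487 against 0.503 and 0.507 for GLYMA.06G314400. In each of the 4 libraries the density was thus lower in the wide peaks.

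**Figure D3:**
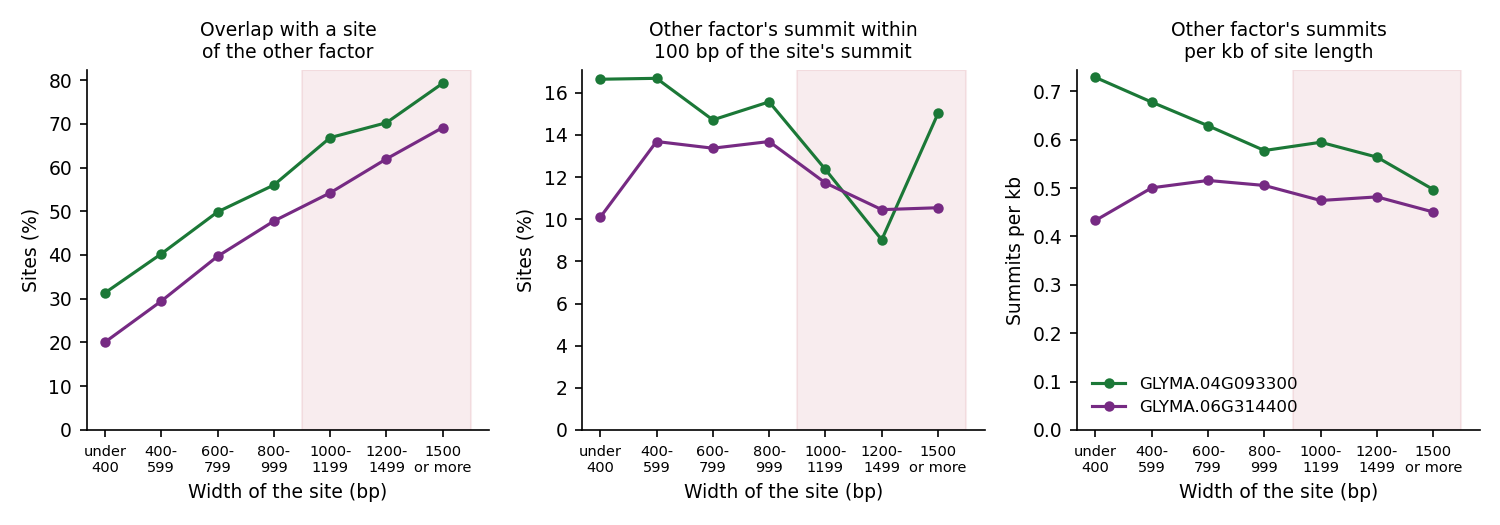
Sites of each factor by width (bp) are plotted by the percent that overlap a site of the other factor (left), the percent with the other factor's summit within 100 bp of their own (middle) and the other factor's summits per kb of site (right), with classes of 1000 bp or more shaded. Overlap climbs to 79.3% and 69.1% in the widest class, while the 2 other measures do not climb with width above 1000 bp in the same way, the middle one of GLYMA.04G093300 moving between 9.02% and 15.0%. For GLYMA.06G314400 both other measures are lowest in sites under 400 bp, at 10.1% and 0.433 per kb.

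Around the chosen summit of a site, summits of the other factor were less concentrated in the nearest class at broad than at narrower sites. Only at broad GLYMA.04G093300 sites did the nearest class hold fewer than the next. At broad GLYMA.06G314400 sites these classes were equal. Where a summit of any member peak was allowed, broad sites of both factors had the higher share within 100 bp. At broad GLYMA.04G093300 sites, 11.7 GLYMA.06G314400 summits per 100 sites lay less than 100 bp away, 16.8 lay 100 to 200 bp away and 12.9 lay 200 to 300 bp away. The counts at narrower sites were 16.1, 10.5 and 5.38, with the nearest class the fullest. Around broad GLYMA.06G314400 sites the GLYMA.04G093300 summits numbered 11.1, 11.1 and 8.54 per 100 sites in these classes, and 7.25 at 500 to 600 bp, against 12.5, 8.30, 4.28 and 1.86 at narrower sites. Among sites that overlapped the other factor, its nearest summit lay a median of 240 bp away at broad and 125 bp away at narrower GLYMA.04G093300 sites, and 285 bp away at broad and 124 bp away at narrower GLYMA.06G314400 sites. An overlapping site of larger width admits larger distances, so these medians are a description.

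**Figure D4:**
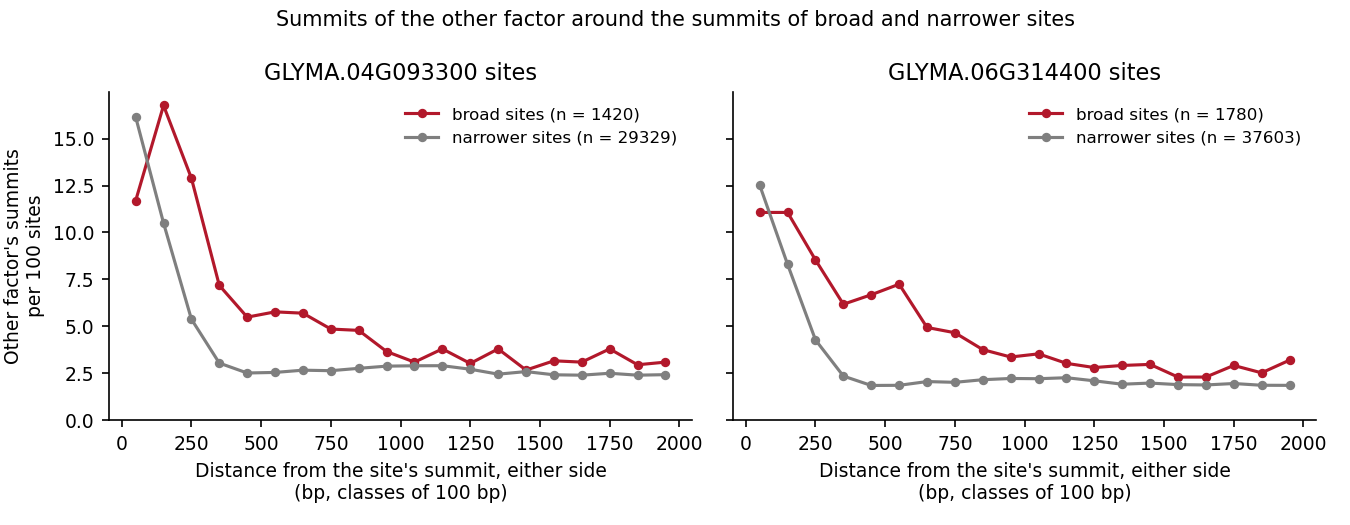
Summits of the other factor per 100 sites are plotted against the distance from the site's own summit (bp, 100 bp classes, both sides added) for broad sites in red and narrower sites in grey. The broad GLYMA.04G093300 sites peak at 100 to 200 bp (16.8) and not in the nearest class (11.7), while the narrower sites are highest in the nearest class for both factors.

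The comparison was also made among the strongest sites. Among the 10% of sites with the highest rank, where 500 of the GLYMA.04G093300 and 724 of the GLYMA.06G314400 sites were broad, overlap was 75.4% against 53.5% and 57.6% against 38.2% for broad against narrower sites. A summit of the other factor within 100 bp was found at 13.6% against 22.2% of GLYMA.04G093300 sites and at 10.8% against 15.5% of GLYMA.06G314400 sites. In this stronger part of the lists the broad sites were thus again more often overlapped and less often matched at the summit.

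Places where both factors had a broad site were a minority. A broad site of the other factor overlapped 214 broad GLYMA.04G093300 sites (15.1%) and 214 broad GLYMA.06G314400 sites (12.0%), in 215 pairs. Of the broad sites that overlapped the other factor at all, 21.7% and 20.5% met a broad site of it, against 8.39% and 7.95% of overlapping narrower sites. A wider site has more room to meet a broad one, so these shares are a description. In these pairs the 2 summits lay a median of 347 bp apart (range 6 to 2807 bp). They were within 100 bp in 26 pairs (12.1%) and 300 bp or more apart in 120 pairs (55.8%). By the smaller of the 2 widths, the first pair covered chr6:21481971-21486116, 4146 bp in all. There a GLYMA.04G093300 site of 2430 bp (folds 7.77 and 5.39 in replicates 1 and 2) and a GLYMA.06G314400 site of 2397 bp (folds 16.7 and 14.1 in replicates 2 and 3) shared only 681 bp at their ends. In the next, at chr13:21901095-21903150, sites of 2054 and 2020 bp coincided over 2018 bp, with GLYMA.04G093300 folds of 9.77 and 6.32 and GLYMA.06G314400 folds of 14.7 and 24.3, yet their summits were 654 bp apart. The others were chr12:6828838-6831286 (overlap 1306 bp, summits 457 bp apart), chr11:8163370-8166013 (1777 bp and 361 bp) and chr10:48669612-48671360 (1711 bp and 1218 bp). The replicates of 1 factor could differ as well, with main summits 444 bp apart for GLYMA.04G093300 on chromosome 13 and 450 and 351 bp apart for GLYMA.04G093300 and GLYMA.06G314400 on chromosome 12.

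Broad sites without the other factor also occurred. No peak of either GLYMA.06G314400 library overlapped 264 broad GLYMA.04G093300 sites (18.6%), against 51.1% of narrower ones, and no peak of either GLYMA.04G093300 library overlapped 449 broad GLYMA.06G314400 sites (25.2%), against 54.3%. The widest of these for GLYMA.04G093300 were chr15:8973048-8975063 (2016 bp, folds 8.52 and 7.53 in replicates 1 and 2), chr13:42111621-42113514 (1894 bp, folds 6.34 and 6.26) and chr10:51172342-51174189 (1848 bp, folds 8.96 and 8.46). The nearest GLYMA.06G314400 summits were 2956, 2635 and 13939 bp away. For GLYMA.06G314400 they were chr17:15255933-15258304 (2372 bp, folds 35.5 and 31.6 in replicates 2 and 3), chr5:26239327-26241562 (2236 bp, folds 45.7 and 47.0) and chr13:1066674-1068886 (2213 bp, folds 25.4 and 26.3). The first 2 of these had a single peak in each replicate with summits 5 and 12 bp apart. Here absence means only that no peak of the other factor passed the authors' threshold.

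Along the chromosomes, broad sites lay towards the ends somewhat more than narrower ones. In soybean the chromosome arms are rich in genes and the central, pericentromeric parts are rich in repeats. The middle 50% of the chromosome span held the summits of 241 broad GLYMA.04G093300 sites (17.0%), against 19.7% of narrower sites and 19.6% of all. It held those of 315 broad GLYMA.06G314400 sites (17.7%), against 21.8% of narrower sites and 21.6% of all. The outermost 10% at each end together held 46.4% of broad against 41.3% of narrower GLYMA.04G093300 sites and 43.5% against 39.2% of GLYMA.06G314400 sites. Averaged over chromosomes, the share in the middle was 14.6% for broad against 18.3% for narrower GLYMA.04G093300 sites, a difference of -3.72 points (SE 1.15 over chromosomes), and broad sites were the lower on 16 of 20 chromosomes. For GLYMA.06G314400 it was 17.0% against 20.6%, a difference of -3.60 points (SE 0.962), with broad sites again the lower on 16 of 20. Chromosomes are not replicates of the experiment, so these counts say how evenly the difference lay over the genome.

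The single libraries gave the same direction. In the middle 50% lay 15.5% and 18.1% of wide against 19.9% and 19.9% of narrower GLYMA.04G093300 peaks, and 17.1% and 17.5% of wide against 22.1% and 21.6% of narrower GLYMA.06G314400 peaks. The library means were 16.8% ± 1.84 against 19.9% ± 0.0231 for GLYMA.04G093300 and 17.3% ± 0.306 against 21.8% ± 0.331 for GLYMA.06G314400 (SD, n = 2 each). On chromosome 13, whose sites lie mostly in the middle 50%, the shares were 51.3% of broad against 53.3% of narrower GLYMA.04G093300 sites and 46.8% against 55.5% of GLYMA.06G314400 sites. On chromosome 16 none of the 32 broad GLYMA.04G093300 sites lay in the middle 50%, against 13.4% of the narrower ones there, while 17.9% of the 56 broad GLYMA.06G314400 sites did, against 16.9%. Chromosome 16 was named after its values were seen.

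**Figure D5:**
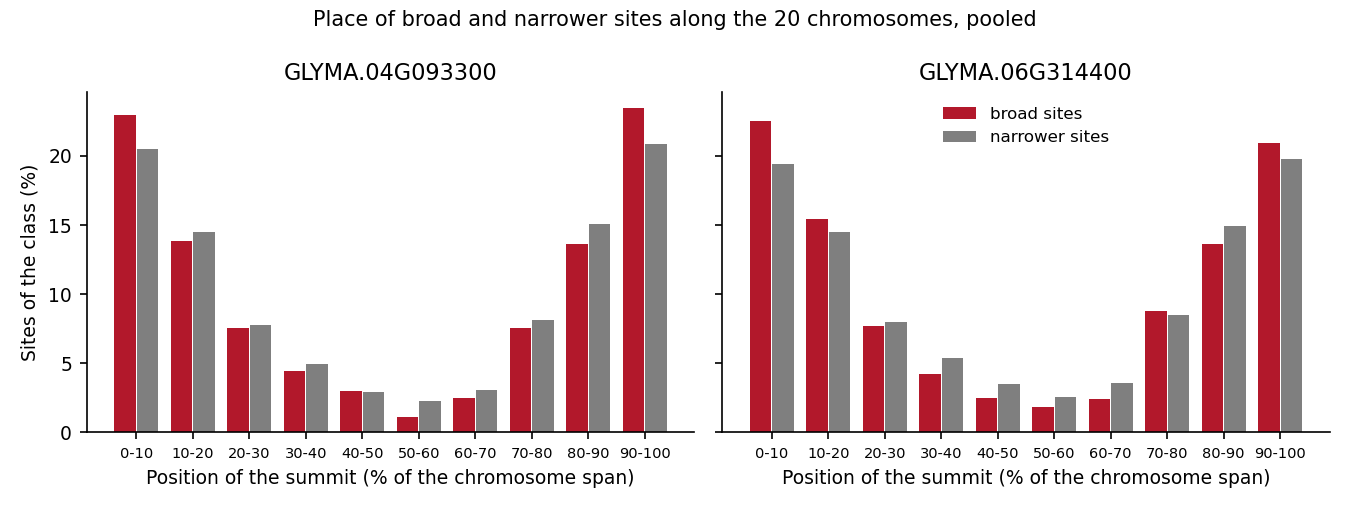
The percent of broad (red) and narrower (grey) sites in each 10% of the chromosome span is shown for both factors, with the 20 chromosomes pooled and the span reaching to the last peak end seen in the 4 lists. Broad sites exceed narrower ones in the outermost 10% at both ends, which together hold 46.4% against 41.3% for GLYMA.04G093300 and 43.5% against 39.2% for GLYMA.06G314400.

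No chromosome was without broad sites. They made up 3.35% (chromosome 16) to 5.70% (chromosome 17) of the GLYMA.04G093300 sites of a chromosome and 3.58% (chromosome 18) to 5.73% (chromosome 11) of the GLYMA.06G314400 sites. Broad GLYMA.04G093300 sites were most numerous on chromosome 13, with 117, and broad GLYMA.06G314400 sites on chromosome 6, with 128, followed by chromosome 13, with 124. Chromosome 13 also had the most sites of any width, 2316 and 2855.

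Broad sites lay in denser surroundings than narrower ones. Another site of the same factor had its summit within 10 kb of that of 1233 broad GLYMA.04G093300 sites (86.8%), against 75.5% of narrower sites and 76.0% of all. For GLYMA.06G314400 this was 1531 broad sites (86.0%), against 78.3% of narrower sites and 78.7% of all. Broad sites were the higher on 20 of 20 chromosomes for GLYMA.04G093300 and on 19 of 20 for GLYMA.06G314400. In single libraries the shares were 95.3% and 91.6% for wide against 86.1% and 81.8% for narrower GLYMA.04G093300 peaks, and 90.7% and 90.8% for wide against 81.3% and 84.3% for narrower GLYMA.06G314400 peaks. Each peak stood alone there, so another peak of the same divided site could count as the neighbour. For joined sites the mean number of neighbours within 10 kb was 2.29 against 1.80 and 2.18 against 1.78. Another broad site of the same factor lay within 10 kb of 208 (14.6%) and 252 (14.2%) of them. The median distance to the nearest one was 90.4 kb for GLYMA.04G093300 and 77.5 kb for GLYMA.06G314400.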

How the data were processed

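The authors deposited 1 peak list per ChIP library, with peaks called separately in each; per the submitters' processing notes, the tools were Bowtie 0.12.7 (alignment) and MACS3 (peaks). The sources used here give no settings or genome build, and do not say how the 3 inputs entered the calling. Each deposited list gives peak edges, summit, a fold (a ratio within that library), a −log10 p, a −log10 q of at least that of 0.01, and a score by the authors that entered no result. The lists contain no counts, so depth is unknown and gives no interval. Coordinates are those of the lists, written from 1. No genome of their build was used, so no gene or sequence is given.

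Groups and replicates follow the sample labels; names inside the lists number the replicates differently. Peaks of the 2 replicates overlapping by 1 bp were joined as connected sets on Chr01 to Chr20. The site summit belongs to the member of highest fold percentile within its list. Sites of the other factor on scaffolds were kept as possible partners. No test across sites was run. Alternatives (stricter q, 50% overlap, other widths, windows and partner rules, single libraries) were tried, with their effects in the closing section. Sites named were, per factor, the 5 widest, the 3 highest and 3 lowest in rank, the 3 with the most members, the 3 on either side of the limit, the 3 widest without the other factor, and the 5 widest pairs. The members and lists were chosen with earlier results of these data known. The joining code was tested on simulated data. Software was matplotlib 3.10.9, scipy 1.17.1, pandas 2.3.3, numpy 2.4.6 and Python 3.11.15.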

Additional observations from a re-analysis of the deposited data

Results flagged for a closer look

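Sites of 1000 bp or more on unplaced scaffolds lie outside the 20 chromosomes and entered no comparison. There were 4 such GLYMA.04G093300 sites among 157 on scaffolds (2.55%) and 10 such GLYMA.06G314400 sites among 207 (4.83%). They are listed because wide sites occurred in data that the comparisons left out. Whether they are separate places in the genome was not tested.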

How the results depend on the processing

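Over all alternatives run, no difference between broad and narrower sites changed direction for overlap (22 alternatives), the middle 50% (18), neighbours (10), rank (8) or summit offset (8). The share with the other factor's summit within 100 bp reversed in 3 of 24. With any member summit it was 22.5% against 20.5% for GLYMA.04G093300 and 16.0% against 14.4% for GLYMA.06G314400, and with an 800 bp minimum it was 12.7% against 12.5% for GLYMA.06G314400. The cause was not tested.

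The number of broad GLYMA.04G093300 sites was 903 with an overlap of 50% of both peaks, 710 by the smaller replicate span and 702 to 781 in single libraries. For GLYMA.06G314400 it was 1034 by the smaller span and 831 to 1484 in single libraries. Overlap of broad GLYMA.04G093300 sites with the other factor was 64.3% with the 50% overlap, 73.9% by the smaller span, 61.9% from 800 bp, 81.4% with any peak of the other factor, 75.4% in the highest 10% and 69.5% to 80.1% with 1 library left out. For GLYMA.06G314400 it was 53.1% at a q of 1e-05, 47.9%, 61.5%, 52.2% and 74.8% under the same first 4 settings, 55.8% in sites with 1 peak in each replicate, and 56.7% to 72.0% with 1 library left out. The summit share of broad GLYMA.04G093300 sites was 13.9% from 800 bp, 13.6% in the highest 10%, 5.14% within 50 bp and 11.3% to 15.1% with 1 library left out. For GLYMA.06G314400 it was 9.69% at the stricter q, 8.51% with the 50% overlap, 10.7% by the smaller span, 10.8% in the highest 10%, 5.56% within 50 bp, 10.2% with 1 peak in each replicate and 10.8% to 18.0% with 1 library left out. The share in the middle of the chromosome was 4.08% and 4.33% for the middle 20%, and 13.9% and 15.5% without chromosome 13. With 1 library left out it was 15.5% to 18.1% for GLYMA.04G093300 and 17.1% to 17.5% for GLYMA.06G314400. For GLYMA.06G314400 it was also 17.0% with the 50% overlap, 19.3% from 800 bp and 18.4% in the highest 10%.

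The share of broad sites with more than 2 members was 40.3% at the stricter q for GLYMA.04G093300. With the 50% overlap it was 0% for both factors, a value set by that rule. With the 50% overlap the summit offset was 31.8% and 33.4%, and 37.8% and 46.8% of broad sites were 1000 bp wide in each replicate. Within 5 kb, 71.0% of broad against 59.0% of narrower GLYMA.04G093300 sites and 68.4% against 59.0% of GLYMA.06G314400 sites had a neighbour.

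The alternatives without chromosome 13, with 1 peak in each replicate and with the highest 10% for chromosome position were chosen after seeing the data. A single library gives no number of joined peaks. No paired analysis was possible because the 2 factors share only 1 replicate number and no comparison between them was tested. Unknown depth limits every absence: weak binding next to or inside a broad site may lie below the calling threshold, and how depth bears on the division of peaks was not tested. The replicates' labels do not say which plants they came from, so the spread between them may be partly technical.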
